A study of Oryza sativa Japonica Group with 41 samples.

Results

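Histone lysine crotonylation (Kcr) in rice seedling leaves was compared after 48 h of darkness, the starvation treatment of the study, with untreated seedlings of the same age. All regions come from 2 starvation and 2 control peak lists, and peaks that overlapped by at least 1 bp in any of the 4 lists were merged into 1 region. This gave 34238 regions, against 39540 when the peaks of all 27 libraries with a list were merged. Of the 34238 regions, 26552 (77.6%) had a peak in every one of the 4 libraries and could be tested for a change in tags, the aligned reads counted under a peak. A further 450 regions (1.31%) had a peak in both starvation libraries and in neither control library (gained). Another 796 (2.32%) had a peak in both control libraries and in neither starvation library (lost). The other 6440 had a peak in some libraries of each group or in 1 library only (variable).

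Both groups were wild type DongJin seedlings grown on hormone-free medium under long-day light/dark cycles, with leaves harvested at ZT12, 12 h after lights on, at an age of 12 days. The starvation group spent the last 48 h before harvest in the dark, and the control group stayed in the light/dark cycle with no treatment. Each group had 2 libraries, and the labels do not say whether they came from separate cultures, so p-values measure only the spread between these libraries, which may be technical. The antibody was raised against crotonyllysine and reads this group on any histone lysine that carries it, so no single residue is measured. The paper allows that some reads or peaks may come from modified non-histone proteins of chromatin. Each library is bulk leaf chromatin, in which fewer marked cells and less mark per cell cannot be told apart. Kcr libraries of submerged seedlings, of the same age and harvested at the same ZT, were used only for comparison. So were H3K9ac libraries from leaves of older plants, sampled over a normal day.

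Crotonylation is a short-chain acylation of lysine that draws on crotonyl-CoA, a metabolite of fatty acid and amino acid breakdown, as acetylation draws on acetyl-CoA and butyrylation on butyryl-CoA. In animal cells the p300/CBP acetyltransferases can write the mark and class I histone deacetylases and sirtuins can remove it. The mark is known from the starts of active genes, where acetylation such as H3K9ac is also found. Darkness stops photosynthesis in leaves, so seedlings kept in it use stored carbohydrate and then lipid and protein.

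The starvation libraries held 30266 and 29914 peaks from 15647646 and 19269402 tags, and the control libraries held 29792 and 32235 peaks from 15734278 and 16599810 tags. Peaks took 51.7% and 48.5% of the tags in starvation and 41.6% and 50.4% in control, so control 1 stood apart by its low share. Its peaks also had the lowest median fold enrichment over local background, 5.90, while the starvation libraries had 7.37 and 6.645 and control 2 had 6.66. With the tags used by the peak caller as the measure of depth, the median log2 ratio over the tested regions was 0.31 for starvation 1 over control 1 and -0.01 for starvation 2 over control 2. Changes are therefore given relative to the common level of the tested regions, set by TMM factors, and this scaling cannot show a change shared by all regions. Of the input peaks, 140 tested regions (0.527%) overlapped one, with 0 of the higher and 4 of the lower regions described next.

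After darkness 356 regions (1.34% of those tested) were higher and 542 (2.04%) were lower, at an adjusted p under 0.05 in edgeR's quasi-likelihood test. The median log2 fold change was 0.69 in the higher regions and -0.78 in the lower regions, and 0.01 over all tested regions. Only 40 of the higher and 116 of the lower regions passed a 2-fold change, and 95.2% of all tested regions lay within 1.5-fold. In all 898 called regions the starvation libraries lay entirely on one side of the control libraries, which was also so for 53.2% of the tested regions. At an unadjusted p under 0.05 there were 5567 regions. The balance of the directions depended on the scaling. Higher regions made up 39.6% of the calls with TMM, 67.7% with the peak caller's tags as library sizes and 64.4% with the study's aligned reads, and the median log2 fold change over all regions was then 0.15 with the caller's tags and 0.13 with the aligned reads. The smallest called log2 fold changes were 0.41 and -0.41, beyond this common shift, so no called region could turn direction under these scalings. Of the 356 higher regions, 343 were called again with the caller's tags and 346 with the aligned reads. Of the 542 lower regions, 327 and 349 were called again.

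The fold rule of the study, more than 1.5-fold in both replicates, was applied to regions with tags divided by the caller's tags of the library. It gave 341 regions up (1.28%) and 210 down (0.791%). With TMM factors it gave 184 up and 401 down. Of the 356 regions that edgeR called higher, 210 were also up by the rule, and of the 542 lower regions 192 were also down. The rule uses no p. In 46 regions the change passed 1.5-fold upward in one replicate and downward in the other.

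The largest fall was at chr3:1705368-1708396 (MSU7.0 coordinates, as for all regions here), a region 4.69% of the way along the chromosome. It held 80 and 98 tags in starvation, against 351 and 437 tags in control. The called length was 1083 and 1140 bp in starvation and 2827 and 2925 bp in control. The log2 fold change was -2.39 ± 0.12 (SE; adjusted p in edgeR = 0.000168), and neither starvation library came near a control library. Butyrylation (Kbu) was measured in the same conditions with libraries of its own, and this region had 101 and 95 Kbu tags in starvation and 498 and 472 in control. No H3K9ac peak was called there in starvation, against peaks of 250 and 259 tags in control. At named regions, Kbu and H3K9ac values are those of regions merged over the 12 starvation and control libraries of the 3 marks. These merged regions can extend past the coordinates given.

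At chr9:20402564-20405727 the Kcr tags were 97 and 120 in starvation and 342 and 360 in control, a log2 fold change of -1.95 ± 0.13 (SE). The Kbu tags were 83 and 100 in starvation and 419 and 381 in control. The H3K9ac tags were 60 and 71 in starvation and 520 and 598 in control, so the 3 marks fell there with log2 fold changes between -1.95 and -2.23. At chr4:32063459-32065764, the second largest fall, 85 and 123 Kcr tags in starvation stood against 335 and 341 in control. This region lost its H3K9ac peaks of 303 and 336 tags in control, with no peak in either starvation library. At chr1:23641763-23645918 the spread was wider, with 145 and 123 Kcr tags in starvation and 254 and 468 in control.

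The 10 largest falls spanned log2 fold changes of -1.54 to -2.39, on 8 chromosomes. They were short regions in starvation, with called lengths of 776 to 1928 bp in starvation 1 and 1140 to 1711 bp in starvation 2, and broad ones in control, with 1907 to 3102 bp in control 1 and 2023 to 4114 bp in control 2. Both their called length and their normalized tags per kb of called length, as means of each group, were lower in starvation in all 10. The smallest drop in normalized tags per kb was at chr4:22204918-22207642, with a log2 ratio of -0.25. Before scaling, this region had 140 and 116 tags per kb in starvation and 121 and 139 in control, so the groups overlapped there. Kbu could be tested in 9 of the 10 and was lower in all 9, with log2 fold changes of -1.13 to -2.36. H3K9ac had a peak in all 4 of its libraries in only 3 of the 10, with log2 fold changes of -1.52 to -2.82, and 5 others had an H3K9ac peak in both control libraries and in neither starvation library.

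The largest rise was at chr6:24015986-24024447, with 1469 and 1909 tags in starvation and 102 and 199 tags in control. One domain of 8190 and 8462 bp was called there in starvation, against 1255 and 2329 bp in control. The log2 fold change was 3.25 ± 0.18 (SE; adjusted p in edgeR = 0.000213), the only rise past a log2 of 2. The Kbu libraries had 1627 and 1370 tags in starvation and 65 tags in 1 control library, with no peak in the other. No H3K9ac library of either group had a peak in this region, nor did either Kcr library of submerged seedlings. Its fold enrichment over local background was low, 2.63 and 2.70 in starvation and 2.95 and 3.26 in control.

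**Figure D1:**
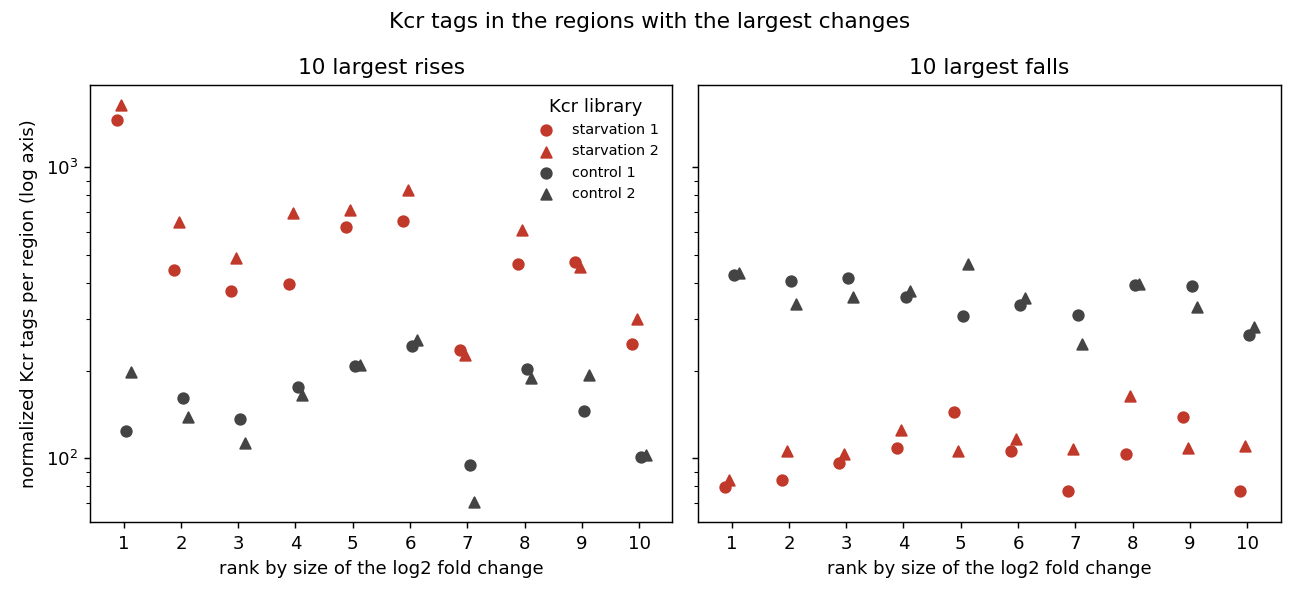
Normalized Kcr tags (log axis, scaled with TMM factors to the mean library size) in each of the 4 libraries for the 10 largest rises (left) and the 10 largest falls (right), ordered by the size of the log2 fold change. Red points are starvation libraries and dark points control libraries, and no starvation point overlaps the control points of its region.

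At chr8:6431814-6436430 the 3 marks were all higher. It held 629 and 827 Kcr tags in starvation and 170 and 211 in control, 653 and 717 Kbu tags in starvation and 233 and 211 in control, and 171 and 175 H3K9ac tags in starvation and 110 and 67 in control. The log2 fold changes were 1.68 for Kcr, 1.58 for Kbu and 1.82 for H3K9ac. At chr4:18750515-18755243 the Kcr tags were 469 and 709 in starvation and 166 and 190 in control, and Kbu and H3K9ac were also higher, with log2 fold changes of 0.96 and 1.45.

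Another rise was not shared. At chr4:33415141-33421202 the Kcr tags were 657 and 974 in starvation and 199 and 256 in control, a log2 fold change of 1.58 ± 0.13 (SE). The Kbu tags were 810 and 830 in starvation and 956 and 814 in control. The H3K9ac tags were 280 and 223 in starvation and 792 and 852 in control, a log2 fold change of -0.85 that passed the test (adjusted p in edgeR = 0.00396). The called Kcr length here was 4047 and 6048 bp in starvation and 1257 and 1285 bp in control, while the tags per kb of called length were 162 and 161 in starvation and 158 and 199 in control. The log2 ratio of normalized tags per kb was -0.38, so more tags were called over a longer stretch at no higher density. Starvation 1 had 2 peaks in this region, and each other library had 1. Tags of a library outside its own called peaks were not counted.

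The 10 largest rises spanned log2 fold changes of 1.43 to 3.25. Their called lengths were 2154 to 8190 bp in starvation 1 and 2202 to 8462 bp in starvation 2. They were short in control, with 1044 to 2232 bp in control 1 and 995 to 2414 bp in control 2. Starvation 1 had 2 peaks, against 1 in each control library, at chr4:33049085-33054828, chr12:275695-282152, chr4:33415141-33421202, chr4:18750515-18755243 and chr10:22774668-22777919. Control 2 had 2 peaks, against 1 in each starvation library, at chr6:24015986-24024447 and chr8:6431814-6436430. The log2 ratio of called length was between 0.96 and 2.22 in the 10, whereas that of normalized tags per kb was between -0.42 and 1.02 with a median of 0.14, and 2 of the 10 had fewer tags per kb in starvation. Kbu could be tested in 7 of the 10. It was higher at an adjusted p under 0.05 in 5, at chr12:275695-282152 it had a log2 fold change of 0.65 with an adjusted p of 0.0532 in edgeR, and at chr4:33415141-33421202 it was -0.16.

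Over all called regions the length moved with the tags. The log2 ratio of called length had a median of 0.34 in the higher regions, -0.33 in the lower regions and 0.05 over all tested regions, and was above 0 in 352 of 356 higher regions and below 0 in 522 of 542 lower regions. The normalized tags per kb of called length had a median log2 ratio of 0.34 in the higher and -0.44 in the lower regions, against -0.05 over all tested regions. They were lower in starvation in 72 of the 356 higher regions and higher in 37 of the 542 lower regions. Since length and tags come from the same peak calls, this is a description of how the change was made up. With the called length as an offset in edgeR, 40 regions were higher and 306 lower, of which 36 and 184 were among the regions called without it. The fold rule on tags per kb gave 26 regions up and 20 down.

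**Figure D2:**
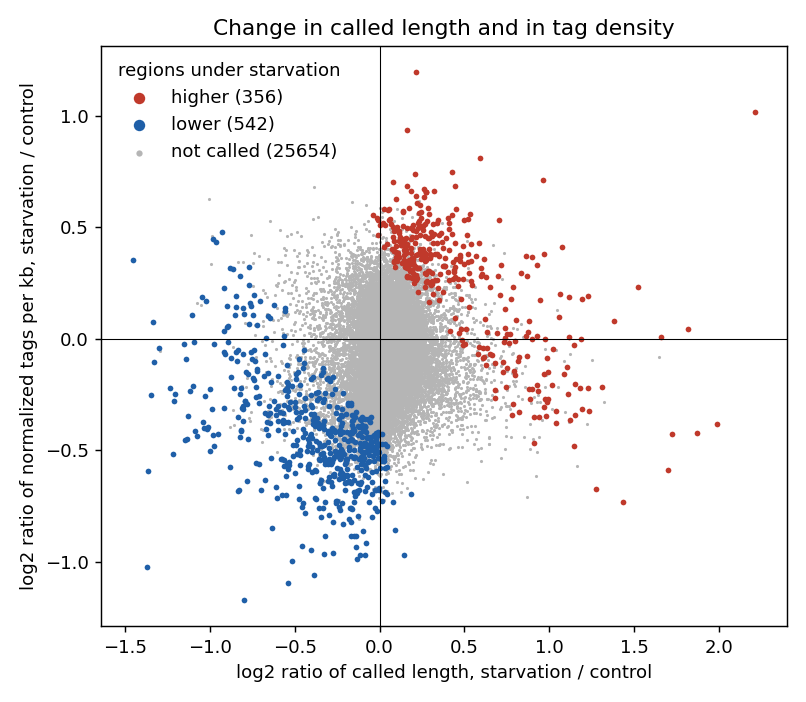
Log2 ratio of called length (x axis) against log2 ratio of normalized tags per kb of called length (y axis), starvation over control, for each of the 26552 tested regions. Red points are the 356 higher regions, blue points the 542 lower regions and grey points the 25654 regions not called. Many higher regions lie far to the right at or below a density ratio of 0, while most lower regions lie to the left and below 0.

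Both edges lay further out in most higher regions and further in in most lower regions. The edges come from the peak calls that chose the regions, so this is a description. Among regions with exactly 1 peak per library, both edges lay further out in starvation in 285 of 325 higher regions (87.7%) and both further in in 341 of 498 lower regions (68.5%), against 45.6% out and 12.5% in among regions not called. In the higher regions the edge that moved more lay a median of 239 bp further out in starvation and the other edge 73 bp further out. In the lower regions the edge that moved more had a median move of -298 bp and the other of -36.8 bp, where a negative move is towards the inside of the region. Regions not called had medians of 52.5 and 13.0 bp further out. The median distance between the same edge in 2 libraries of a group was 61.5 bp in starvation and 54.0 bp in control for the higher regions, and 77.0 and 59.5 bp for the lower regions. In the lower regions the median move of the edge that moved less, -36.8 bp, was thus smaller in size than either distance. A move of more than 500 bp at one edge was seen in 29.2% of the higher, 33.7% of the lower and 3.03% of the regions not called. The edge that moved more was the one at the higher coordinate in 171 of 325 higher and 256 of 498 lower regions.

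The summit, the position with the most tags, moved little. The starvation and control summits were a median of 34.8 bp apart in the higher regions, 61.0 bp in the lower regions and 26.0 bp in regions not called. The summits of the 2 control libraries were themselves a median of 43.0 bp apart in the higher, 56.0 bp in the lower and 34 bp in the regions not called. Within starvation this distance was smaller than within control in all these classes. The median shift between groups was above the median distance within either group in the lower regions. In the higher regions and the regions not called it was below both. The shift was taken between averages of the 2 summits of a group, and the distance within a group between single summits. Their sizes are therefore not directly comparable, and no test was made over regions.

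Lower regions were wide in control. Their called length had medians of 1525 and 1642 bp in starvation and 2076 and 2114 bp in control. The higher regions had 1814 and 1968 bp in starvation and 1349 and 1403 bp in control, and the regions not called 1437 and 1548 bp in starvation and 1433 and 1445 bp in control. The control lengths belong to the libraries that chose the regions, so the control Kbu lists were used as a second measure. The control Kbu peaks in the lower regions were also wide, with medians of 2251 bp in replicate 1 and 2023 bp in replicate 2, while regions not called had 1639 and 1490 bp and higher regions 1689 and 1520 bp. When the tested regions were split into quintiles by control Kbu length, 0.405% of the shortest quintile and 5.76% of the widest quintile were lower, with 0.657%, 0.924% and 2.31% between them. The higher regions showed no such order, with 78 of 5187 regions in the shortest, 0.986%, 1.12% and 1.41% in the next, and 1.62% in the widest quintile.

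With Kcr itself, where width and change shared no library, falls were most frequent in the widest quintile but did not go up steadily with width. Among the widest quintile by control 1 length (1884 bp or more), 6.46% of regions were more than 1.5-fold lower in the mean of the starvation libraries than in control 2, and 1.45% more than 1.5-fold higher. In the middle quintile these shares were 2.38% and 1.33%, and in the shortest quintile 4.25% and 3.94%. With the roles of the controls exchanged, the widest quintile had 7.34% lower and 2.86% higher, the middle quintile 2.59% and 1.67%, and the shortest quintile 4.31% and 3.34%. The shortest quintile thus had the most rises in both splits.

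By edgeR calls, rises were most frequent at a low starting level. Among quintiles of the control Kbu level, in tags scaled to library size, 1.86% of the lowest and 0.633% of the highest quintile were higher in Kcr, whereas 73 of 5216 regions of the lowest and 2.61% of the highest quintile were lower. By control H3K9ac level, 2.44% of the lowest and 0.531% of the highest quintile were higher, and 1.88% of the lowest and 3.40% of the highest quintile were lower, with 1.30% of the middle quintile. Falls past 1.5-fold in both replicates, scaled with TMM factors, were instead fewer at a high Kbu level. They numbered 118 of 5216 regions in the lowest and 54 in the highest quintile. By H3K9ac level they numbered 64 in the lowest, 31 in the middle and 65 in the highest quintile. Rises past 1.5-fold numbered 84 and 10 in the lowest and highest Kbu quintiles, and 60 and 6 in those of H3K9ac. A region with more tags also has less counting error, and the part of depth in these values was not tested. The spread of the log2 fold changes was larger at a low level, with an SD of 0.35 in the lowest and 0.23 in the highest quintile of control Kbu level. In the quintiles by control 1 Kcr level, 5.02% of the lowest quintile were more than 1.5-fold above control 2 and 7.23% more than 1.5-fold below it, against 0.414% and 2.41% of the highest quintile.

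**Figure D3:**
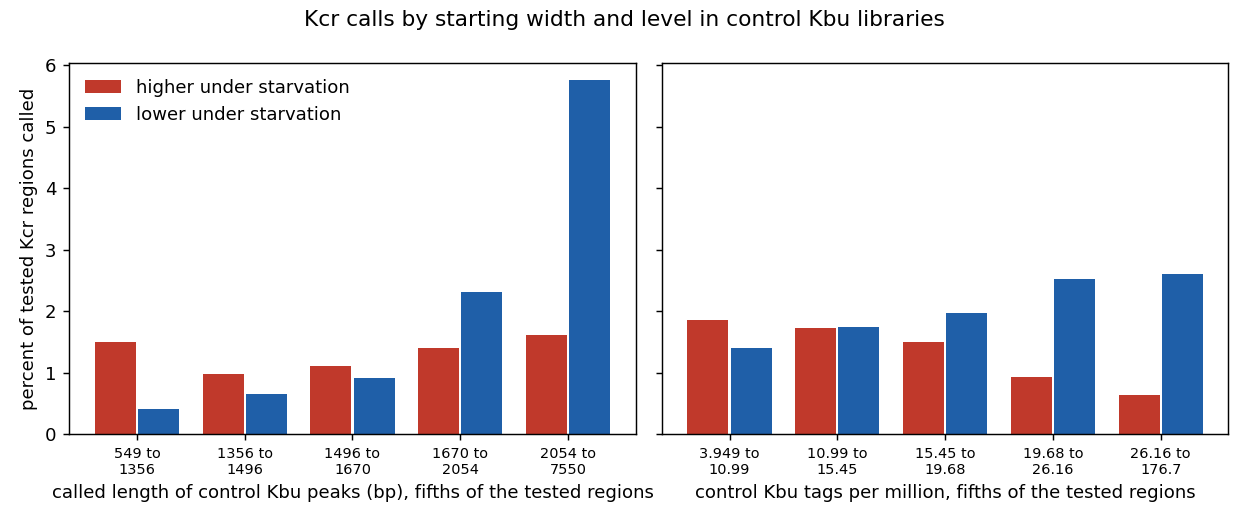
Percent of tested Kcr regions called higher (red) or lower (blue) after darkness, in quintiles of the regions by the called length of control Kbu peaks (left, bp) and by control Kbu tags scaled to library size (right). The share of lower regions goes up with width to 5.76% in the widest quintile, and the share of higher regions goes down with level to 0.633% in the highest quintile.

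In tags scaled to a common size, the higher regions had medians of 321 and 322 in starvation and 199 and 206 in control. The lower regions had medians of 169 and 181 in starvation and 311 and 312 in control. Regions not called had 263 and 263 in starvation and 259 and 258 in control. These levels come from the libraries that chose the regions, so they are a description. The 312 lower regions that also passed 1.5-fold in both replicates with TMM factors had medians of 124 and 132 in starvation and 256 and 257 in control, close to the control level of regions not called.

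The shares of the classes along and between chromosomes are given with no test. The share of tested regions that were higher lay between 1.07% on chromosome 7 and 1.71% on chromosome 9, and the share that were lower between 1.39% on chromosome 6 and 2.52% on chromosome 1. The gained regions made up 0.860% of the regions on chromosome 12 and 1.55% on chromosome 11, the lowest and highest shares, and the lost regions 1.70% on chromosome 3 and 3.14% on chromosome 9. The median distance to the nearer end was 19.7% of the chromosome's span in higher, 22.0% in lower, 21.1% in not called, 19.1% in gained and 22.2% in lost regions, where the span ends at the last peak of any library. Gained regions made up 1.54% of the regions within 10% of the span of either end and 1.05% of those in the middle of the chromosome, 40% to 50% of the span from the nearer end. In the quintile of regions with the fewest neighbours within 250 kb, 1.10% were higher and 1.46% lower, against 1.35% and 2.21% in the quintile with the most. Lost regions went the other way, with 2.68% of the regions in the sparsest and 2.07% in the densest quintile.

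Some called regions lay side by side, mostly with a neighbour of the same direction. The next tested region on either side was also higher for 45 of 356 higher regions (12.6%) and also lower for 61 of 542 lower regions (11.3%). A neighbour of the opposite direction was found for 6 of the higher and 6 of the lower regions. Over all tested regions 1.34% were higher and 2.04% lower. These are shares of single regions, whereas the counts above take a neighbour on either side, so they are not directly comparable. Neighbours of regions not called were not counted. The 23 adjacent pairs of higher regions had a median gap of 4419 bp and the 33 pairs of lower regions 5645 bp, against 7382.5 bp over all adjacent pairs. Neighbouring regions can lie on the same gene, so they are not independent.

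Kbu and H3K9ac came from their own starvation and control libraries, and the labels do not say whether the same chromatin was used. Over regions merged from all 12 libraries, Kbu was higher in 11.5% and lower in 16.2% of 25782 tested regions, and H3K9ac was higher in 17.9% and lower in 20.9% of 19031 tested regions. At the regions where Kcr was higher, Kbu was higher in 266 of the 345 with a Kbu value (77.1%) and lower in 6, with a median log2 fold change of 0.53. At the regions where Kcr was lower, Kbu was lower in 429 of 450 (95.3%) and higher in 0, with a median of -0.83. H3K9ac was higher in 188 of 266 higher Kcr regions (70.7%) with a median of 0.53, and lower in 5. It was lower in 201 of 218 lower Kcr regions (92.2%) with a median of -1.17, and higher in 0. All 3 marks were higher in 164 of the 263 higher Kcr regions where both other marks were tested. They were all lower in 184 of the 213 such lower Kcr regions.

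The H3K9ac values leave out many of the falls, because a region needs a peak in every library to be tested. Of the 542 lower Kcr regions, 282 had no H3K9ac peak in either starvation library and 123 had none in either control library. Of the 356 higher Kcr regions, 23 had none in either starvation library and 56 none in either control library. The starvation H3K9ac libraries were shallower, with 5631625 and 6480371 tags against 10581295 and 11985500 in control, and among regions not called in Kcr 5629 of 25654 had no starvation and 4561 no control H3K9ac peak. The part of depth in the missing peaks was not tested.

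**Figure D4:**
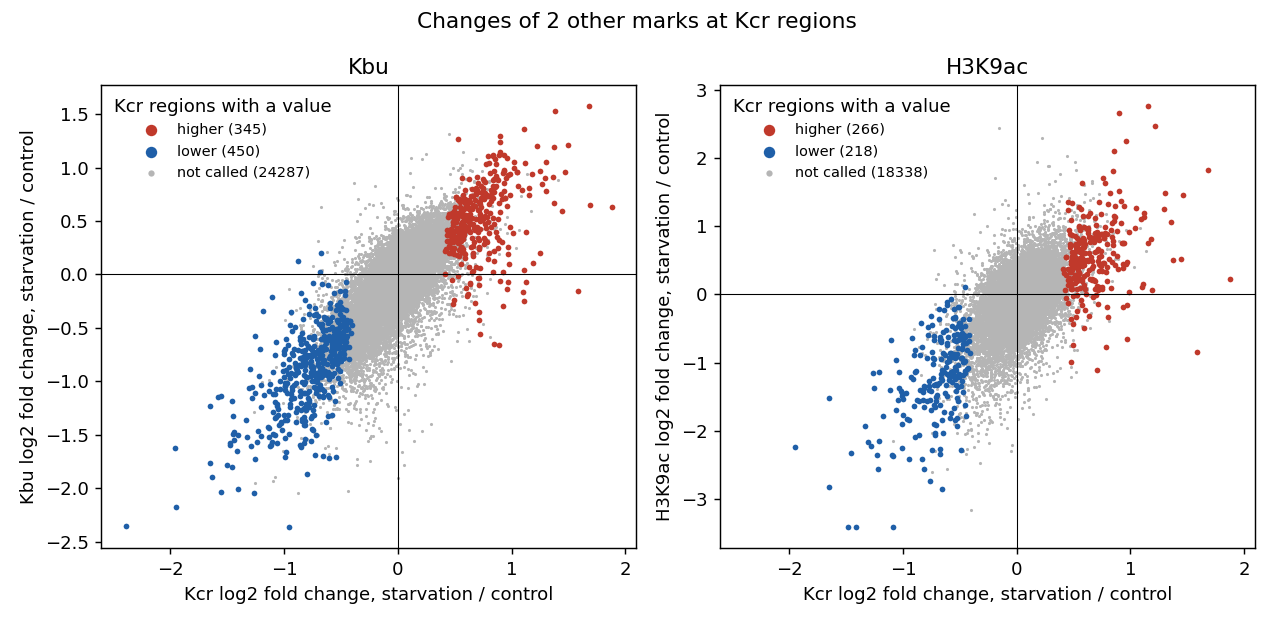
Log2 fold change of Kcr (x axis) against that of Kbu (left) and H3K9ac (right), starvation over control, at the Kcr regions with a value for the other mark. Red points are regions higher in Kcr, blue points regions lower in Kcr and grey points regions not called. The lower Kcr regions lie almost all below 0 for both other marks, and 26 of 345 higher Kcr regions lie below 0 for Kbu.

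The difference between marks was tested itself, as the interaction of mark and treatment in edgeR. The Kcr change differed from the Kbu change in 6 of 24918 regions (0.0241%), and 1568 passed an unadjusted p of 0.05. Without 1 Kcr library this count was 26 (starvation 1), 8 (starvation 2), 14 (control 1) or 40 (control 2). It differed from the H3K9ac change in 1537 of 18668 regions (8.23%), with the Kcr change above the H3K9ac change in 1046 and below it in 491. With the caller's tags as library sizes there were 1062 above and 81 below. In 1459 of the 1537 the H3K9ac change was the larger in size, and Kcr itself was called in 115. The SD of the log2 fold change across those 18668 regions was 0.23 for Kcr and 0.44 for H3K9ac.

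In all 6 regions that differed from Kbu the Kcr change lay above the Kbu change. Kcr was higher and Kbu lower at chr3:23830623-23833179, with 272 and 310 Kcr tags in starvation and 109 and 157 in control, and 168 and 184 Kbu tags in starvation and 276 and 262 in control. At chr3:1885842-1891807 Kcr was level, with 224 and 286 tags in starvation and 184 and 235 in control, while Kbu had 253 and 259 tags in starvation and 813 and 748 in control. At chr1:26732495-26737116 both marks were lower, Kcr with a log2 fold change of -0.95 and Kbu with -2.36. These regions were named after their values were seen, and their values describe the difference that the test picked.

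Gained and lost peaks were weak. In the 450 gained regions the median tags per kb were 87.4 and 102 in the starvation libraries, against 172 and 185 over the tested regions. In the 796 lost regions they were 80.1 and 86.2 in the control libraries, against 140 and 169 over the tested regions. The peak score, which grows as the p given by the caller gets smaller, has a floor of 50, and its medians were 79.0 and 81.5 in gained and 69.0 and 82.5 in lost regions. A score of at least 100 in both libraries was reached by 78 gained (17.3%) and 83 lost regions (10.4%). The called lengths were short, with medians of 1156 and 1301 bp in gained and 1147 and 1176.5 bp in lost regions. A missing peak means only that the region missed the caller's threshold in that library, so no fold change is given. The number of regions with a peak in 1 starvation and 1 control library was 1059, and 1507 regions had a peak in control 2 alone. The pair of starvation 1 and control 2 made up 483 of the 1059, more than the 450 gained regions.

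The other marks give values from libraries that did not choose these regions. Of the 450 gained Kcr regions, 265 (58.9%) had a Kbu peak in both starvation libraries and 61 (13.6%) in both control libraries. Of the 796 lost regions, 32 (4.02%) had a Kbu peak in both starvation libraries and 386 (48.5%) in both control libraries. The 6440 variable regions had shares of 22.0% in starvation and 36.7% in control. For H3K9ac, 27.8% of the gained regions had a peak in both starvation and 9.56% in both control libraries, and 3.14% of the lost regions had one in both starvation and 17.3% in both control libraries.

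**Figure D5:**
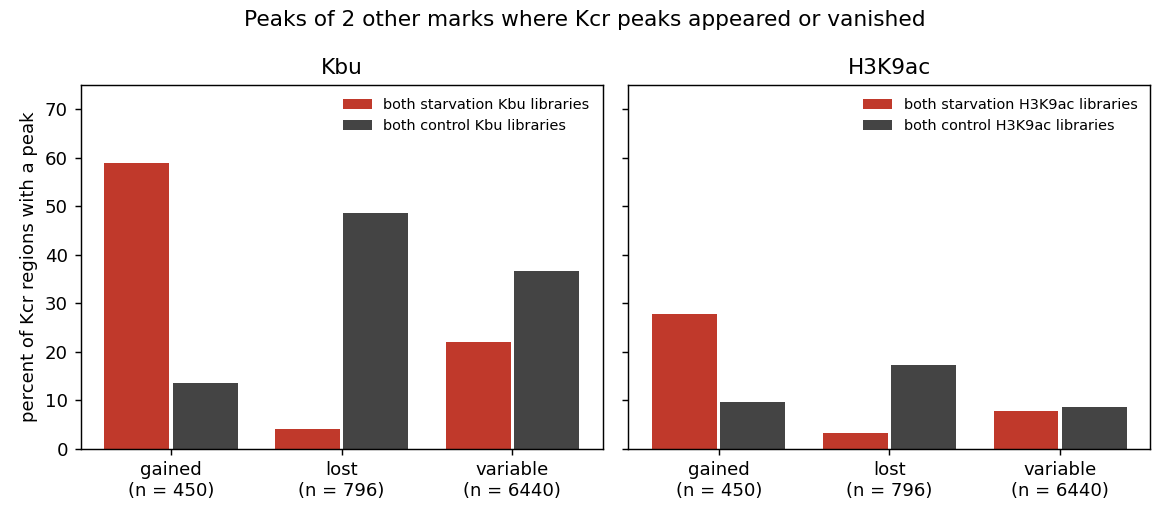
Percent of Kcr regions with a Kbu peak (left) or an H3K9ac peak (right) in both starvation libraries (red) and in both control libraries (dark), for the 450 gained, 796 lost and 6440 variable regions. The starvation bar is the taller at gained regions and the control bar at lost regions, for both marks.

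The gained region with the most tags was chr7:28848747-28854732, with 962 and 1097 Kcr tags over 5324 and 5986 bp in starvation and no peak in either control library. It had 893 and 1073 Kbu tags in starvation and no Kbu peak in control, and 1 starvation H3K9ac library had 367 tags. The next were chr5:24443656-24448814 with 378 and 707 tags and chr10:19135710-19140774 with 334 and 642 tags in starvation. At both, Kbu and H3K9ac also had peaks in both starvation libraries and in no control library. The last 2 of the 5, chr4:27567473-27570466 and chr3:4660497-4662436, held 402 and 559 tags and 448 and 509 tags in starvation. At the second of these 1 control Kbu library had 1007 tags, counted over the region merged from 12 libraries. All 5 had a peak in both Kcr libraries of submerged seedlings. So did 41.1% of the 450 gained regions, 64.9% of the 796 lost regions and 87.1% of all 34238 regions.

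The lost region with the most tags was chr2:5627860-5634529, with no Kcr peak in starvation and 835 and 671 tags in control. The other marks did not follow it there. One starvation Kbu library had 1415 tags and the other no peak, against 1088 and 935 in control, and H3K9ac had 883 and 729 tags in starvation and 1100 and 1322 in control, a log2 fold change of 0.28 (adjusted p in edgeR = 0.154). At chr2:25445124-25450387, with 552 and 602 Kcr tags in control, neither Kbu nor H3K9ac had a starvation peak, against 608 and 471 Kbu tags and 477 and 455 H3K9ac tags in control. At chr9:21560586-21564328 the Kcr tags were 363 and 388 in control, while Kbu had 472 and 374 tags in starvation and 524 and 337 in control. The 5 lost regions with the most tags had low fold enrichments for their size, between 2.39 and 3.49 in control 1, against a median of 6.31 over the tested regions in that library.

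The H3K9ac lists of leaves at ZT0, ZT6, ZT12 and ZT18 come from older plants of a separate experiment and describe how the regions vary over a normal day. The largest ratio between time points passed 2-fold in 42.7% of 206 higher and 44.7% of 235 lower Kcr regions with a value, against 12.9% of 16727 regions not called. It also passed 2-fold in 55.4% of 65 gained, 43.8% of 80 lost and 40.8% of 571 variable regions, so a wide range over the day was not particular to the regions called higher or lower. The median log2 range was 0.87 in higher, 0.93 in lower, 0.83 in variable and 0.45 in regions not called. The level at these regions was not lower, with a median of 339 scaled tags in higher, 365 in lower and 279 in regions not called. The log2 ratio of ZT12 over ZT0 had a median of -0.22 in the higher and 0.37 in the lower regions, against -0.03 in regions not called, with quartiles of -1.13 and 0.22 in the higher and -0.14 and 0.92 in the lower regions. The time-course libraries share no sample with the darkness experiment, and no test was made over regions.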

How the data were processed

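ChIP-seq reads of the 4 Kcr libraries (and of the Kbu, H3K9ac and input libraries set beside them) were trimmed with Trimmomatic (0.33 in the submitters' processing notes), aligned to MSU7.0 with Bowtie2 2.2.5, freed of duplicates with SAMtools 0.1.19, and used for peak calling per library with MACS at a p of 1e-05, without the input. The tag count, fold enrichment ratio over local background and score (a log-transformed p) of each peak are as deposited by the authors, and no other unit was used besides peak length and summit position, also as deposited.

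Peaks were merged at 1 bp of overlap in Python 3.11.15 with pandas 2.3.3, and tags were summed per region and library. Regions with a peak in all 4 libraries entered edgeR 4.0.16 under R 4.3.3 (quasi-likelihood, TMM, Benjamini-Hochberg over all tested regions, adjusted p under 0.05). Single values such as peak lengths were given with no test; exact permutation of 2 and 2 libraries would give no p below 0.33. Regions named in the text are the 10 largest rises and 10 largest falls past the threshold that also passed 1.5-fold in both replicates and the 5 gained and 5 lost regions with the most tags, to which the regions that differed from Kbu were added after their values were seen. The members and rules were chosen with earlier results of these data known. Quintiles split the tested regions into 5 groups of about equal number. Tag totals limit precision by counting error only, with a median peak of 200 to 285.5 tags in the 4 libraries. Genes and sequences were not analysed here, because no annotation of the same build was used. The alternatives were other scalings, DESeq2 1.42.0, other region filters, the called length as an offset, a score of at least 100, an overlap of 50%, the replicate block and leaving out each library. The scripts were tested on simulated data.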

Additional observations from a re-analysis of the deposited data

Results flagged for a closer look

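The tests of mark by treatment picked out the following results, each because the Kcr change differed from the change of another mark at an adjusted p under 0.05 in edgeR. The Kcr change differed from the Kbu change in 6 regions and from the H3K9ac change in 1537, and the first of these counts was 8 to 40 without 1 Kcr library. Among the regions named for their Kcr change, chr4:33415141-33421202 had a log2 change in Kcr of 1.73 above that in Kbu (adjusted p = 0.00934) and of 2.37 above that in H3K9ac (adjusted p = 0.000457). At chr4:33049085-33054828, with 446 and 754 Kcr tags in starvation and 132 and 139 in control, the Kcr change lay 1.60 above the H3K9ac change (adjusted p = 0.00899). At chr1:23641763-23645918 the Kcr change lay 1.11 above the H3K9ac change (adjusted p = 0.0468), where H3K9ac had 56 and 57 tags in starvation and 686 and 765 in control. Groups of 2 libraries are too small for a search for single libraries that stand apart.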

How the results depend on the processing

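The 356 higher and 542 lower regions became 945 higher with the caller's tags as library sizes, 796 higher with aligned reads, 153 higher and 307 lower with DESeq2, 40 higher and 306 lower with the called length as an offset, and 0 and 0 (5469 at an unadjusted p under 0.05) in edgeR when absent peaks were set to 0 tags. Without each library in turn there were 272 to 369 higher and 437 to 833 lower regions, the 833 without starvation replicate 2 and the 272 without control replicate 1. The fold rule gave 179 up and 401 down with summed tags, 184 up and 401 down with TMM factors, 26 up and 20 down per kb, and 207 up and 93 down with a score of at least 100. Gained regions numbered 644 to 1537 and lost regions 1332 to 2314 without each library in turn (1537 gained without control replicate 2 and 2314 lost without control replicate 1), since a class then rests on 3 lists, and a score of at least 100 gave 486 lost. The regions that differed from Kbu numbered 8 to 40 without each Kcr library (26 without starvation replicate 1, 14 without control replicate 1, 40 without control replicate 2), and those that differed from H3K9ac 1253 to 1881. The median log2 ratio of called length was 0.00 to 0.10 without each library, against 0.05.

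The labels do not say that a replicate number marks a shared batch, and the deviations of same-numbered libraries correlated at -0.15 across regions. With the replicate block edgeR gave 374 higher and 626 lower regions, and 4 regions that differed from Kbu and 733 from H3K9ac (559 with the Kcr change above and 174 below). With the length as an offset, 71 of the 356 and 36 of the 542 regions turned direction, among them chr4:33415141-33421202 (log2 fold change -0.39) and chr4:18750515-18755243 (-0.42). Apart from absent peaks set to 0, which ended every call, the 20 named regions kept direction and call in 228 of 244 comparisons, lost the call in 14 and turned in these 2. Of the 14 lost calls, 11 came with the length as an offset, where all 20 regions were present. The losses were therefore concentrated in that setting. With a score of at least 100, 5 of the 20 were present and 2 of these were not called. The cause of these shifts was not tested. The part of depth in the gained and lost regions was not tested.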
